A study of Ceratitis capitata with 12 samples.

Results

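Gene expression in the abdomen (Ab) was compared with that in the head and thorax (HT) of adult male medflies, Ceratitis capitata, from the lines selected on the Starch larval diet. These samples are 6 of the 12 in the study, namely 3 Ab and 3 HT samples, and the Ab and HT sample of one number came from the same males of one line. All flies were of the wild-type Toliman strain and came from generation 60 of selection on a starch-based larval food of about 291 kcal per litre. The other 6 samples were used only where the diets are set side by side, and came from lines kept on ASG, a sucrose-based food of about 684 kcal per litre. Before sampling, both sets of lines were reared on a common glucose larval food, and the virgin males were sampled 7 days after eclosion on sugar and yeast hydrolysate. Each sample was 1 pool of 17 to 22 body parts, so that a line, not a fly, is the replicate, and there were 3 lines per diet.

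In a male fly, the abdomen holds most of the midgut, the fat body, the Malpighian tubules, the testes and the accessory glands. The head and thorax hold the brain, the eyes, the antennae and the flight and leg muscles. Digestive proteases are made in the midgut, whereas odorant-binding proteins are typical of the antennae, so a body part comparison sets whole organ systems against each other. In such bulk samples fewer cells of a type and less RNA per cell cannot be told apart.

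The deposited whole-number abundances were repeated over many transcripts. Of 19761 transcripts listed in any Starch sample, 11975 had an abundance sum of at least 100 over the 6 samples, and the other 7786 were left out. The transcripts kept held only 125 distinct sets of 6 values. Of the kept transcripts, 99.9% shared their set with at least 1 other, the median set was held by 24 transcripts, and the most widespread by 834. A total of 9275 kept transcripts matched 6062 genes in the RefSeq table for assembly Ccap_2.1, and 0 of 1487 genes with several kept transcripts carried more than 1 set. Each distinct set, called a value below, was therefore counted once and named after the first of its genes in the order of that table. A result for a value belongs to all the transcripts that hold it and cannot be assigned to one gene among them. Values ran along stretches of neighbouring genes. Of 10408 pairs of neighbours in the order of that table, 95.4% carried the same 6 Starch abundances. These pairs include genes left out by the minimum sum. The longest stretch of one value, that of LOC101455435, ran over 313 genes.

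The 6 samples listed between 15622 and 17402 transcripts, and the 125 values summed to between 51543 and 64527 per sample. The 3 Ab samples resembled each other closely, with Pearson correlations across values of 0.987 to 0.988 on the log2(value + 20) scale, as a description. Among the HT samples, replicates 2 and 3 correlated at 0.989, but replicate 1 correlated with them at 0.968 and 0.961. The values were also compared after the scaling described below. In the 69 with a deposited sum of at least 1000, HT replicate 1 then lay outside the range of the other 2 HT samples in 62. It was above both in 27 and below both in 35. Any 1 of 3 like samples lies outside the range of the other 2 more often than not, so part of this count carries no weight. For the results described below that moved most without line 1, the value without it is also given. The deposited abundances give an example of either direction between body parts. The value of LOC101460264, at 661 to 807 in the Ab samples, stood at 2, 1 and 0 in HT replicates 1, 2 and 3. That of LOC101461731, at 575 to 723 in the HT samples, stood at 25 to 31 in Ab.

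Of the 125 values, 64 differed between the body parts at an adjusted p under 0.05 (51.2%; edgeR quasi-likelihood test with line as block and Benjamini-Hochberg adjustment). Higher levels in Ab were found for 29 values (23.2%), which covered 2568 transcripts and 1354 genes, and higher levels in HT for 35 values (28.0%), which covered 3355 transcripts and 1724 genes. The median log2 fold change, Ab minus HT, was 1.41 in the former and -1.16 in the latter, against 0.03 over all 125 values. The largest differences ran to both sides. Differences of more than 2 on the log2 scale were found in 4 values higher in Ab and 11 values higher in HT. After scaling, the sign was the same in all 3 lines for all 64 values, and also for 32 of the 61 that did not pass. A test with line as block favours values of like sign, so this count is no separate result. In the deposited abundances, the Ab and HT ranges did not overlap in 29 of the 29 values higher in Ab, in 24 of the 35 higher in HT and in 11 of the 61 that did not pass, which is 64 of 125 overall (51.2%).

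The balance between the body parts depended on scaling. The samples were scaled by the trimmed mean of M values (TMM), which estimates a size factor for each sample from the bulk of the values. With equal library sizes in its place, 33 values were higher in Ab and 19 in HT, and the median difference over all values moved up by 0.27 on the log2 scale. The share of calls that were higher in Ab was 45.3% with TMM scaling and 63.5% with equal sizes. Of the 64 calls, 47 were kept under equal sizes, and 0 reversed in sign under any alternative tried. Without line 1, 72 values passed, without line 2 only 33, and without line 3, 44.

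**Figure D1:**
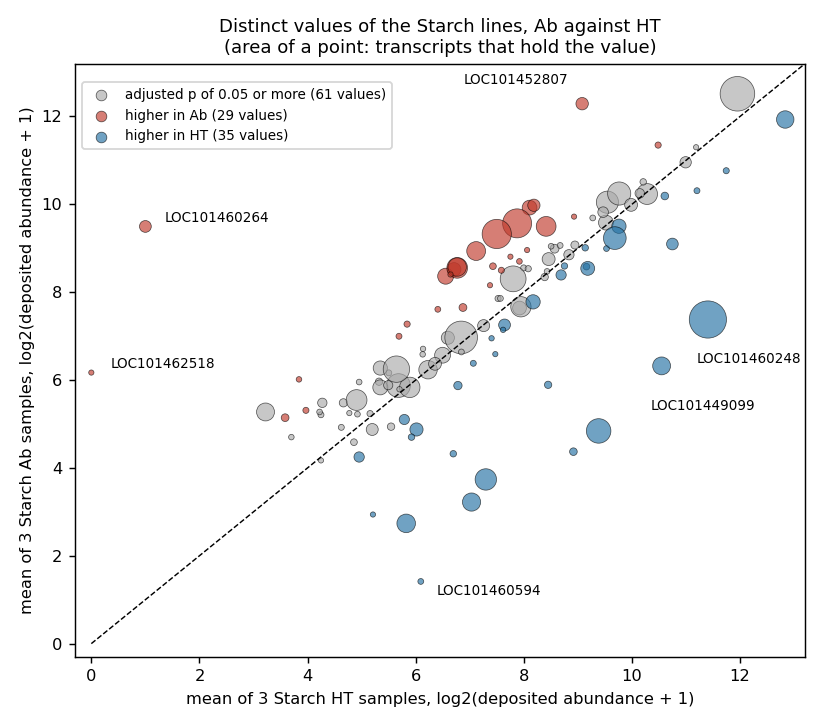
Mean deposited abundance of the 3 Starch Ab samples (y axis) against that of the 3 Starch HT samples (x axis), both as log2(abundance + 1), for the 125 distinct values. The area of a point follows the number of transcripts that hold the value, red points are the 29 values higher in Ab, blue points the 35 higher in HT, grey points the 61 others, and the dashed line marks equal levels. The values of LOC101460264 and LOC101462518 lie far to the left at 0 or close to 0 in HT, and the 834 transcripts of the LOC101460248 value lie far below the line.

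The abdomen held 2 values that were close to absent from the head and thorax. The value of LOC101460264, held by 70 transcripts of 41 genes in 2 stretches, was 696, 661 and 807 in Ab replicates 1, 2 and 3 and 2, 1 and 0 in HT. The summed abundances of 2164 and 3 gave a scaled ratio of 611, with an exact 95% interval of 209 to 2970 that covers counting error only. The fitted log2 fold change was 9.10 (SE 0.34, adjusted p = 1.0e-06), or 9.78 without line 1.

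LOC101462518 held a value that no other gene shared. It was 57, 85 and 71 in Ab replicates 1, 2 and 3 and 0 in each HT sample, which makes it at least 19.4-fold higher in Ab against a floor of 3 counts per library (adjusted p = 0.00064). It was likewise at 100, 147 and 162 in the ASG Ab samples and at 0 in the ASG HT samples, so that the gene was listed in all 6 Ab samples of the study and in 0 of its 6 HT samples. The gene table used here gives this locus no product name.

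The next largest difference towards Ab was found for the value of LOC101452807, shared by 31 genes. Among them are LOC101453897 and LOC101454073, both named as chymotrypsin-1-like, serine proteases of the kind that digests dietary protein. Neither name identifies the gene measured. A list for digestive proteases, matched to names, took in 8 genes, some of them named only as serine proteases. Of the 8, these 2 lay on a value higher in Ab, 1 on a value higher in HT and 5 on values that did not pass. The value of LOC101452807 was 4430, 5550 and 5051 in Ab replicates 1, 2 and 3 and 602, 520 and 498 in HT. The body parts were far apart in every line, with a log2 fold change of 2.95 (SE 0.21, adjusted p = 5.2e-05). A further value with 1 matched gene, that of LOC105664522, was 80, 60 and 51 in Ab and 17, 10 and 13 in HT (log2 fold change 2.01, SE 0.36, adjusted p = 0.0029). Of the 3 transcripts that hold it, 2 matched no gene.

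Most of the values higher in HT by a large margin were held by many genes. The value with the most transcripts of all, that of LOC101460248, was carried by 834 transcripts of 443 genes in 13 separate stretches. It was 158, 172 and 166 in Ab replicates 1, 2 and 3, and 1330, 3632 and 3173 in HT. All HT samples lay far above all Ab samples, although HT replicate 1 was at less than the other two, and the log2 fold change was -4.20 (SE 0.41, adjusted p = 0.00022). It was -4.79 without line 1 and -4.82 without HT replicate 1. The genes with a name on this value are pupal cuticle protein Edg-78E, a structural protein of the insect cuticle, and a putative serine protease, F56F10.1.

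The value of LOC101461731 was held by 353 transcripts of 198 genes. It was 31, 25 and 27 in Ab and 723, 704 and 575 in HT (log2 fold change -4.85, SE 0.20, adjusted p = 1.2e-06), and its samples varied little within a body part. Its named genes include a general odorant-binding protein 19d-like, a glucose dehydrogenase, a pancreatic lipase-related protein 2, the protein vreteno, an angiopoietin-4-like protein and Fst2. None of these names identifies the gene measured among the 198. Close to it, the value of LOC101449099, shared by 106 genes, was 78, 69 and 90 in Ab and 1608, 1398 and 1487 in HT (log2 fold change -4.52, SE 0.17, adjusted p = 1.0e-06). LOC101449099 itself is named as tigger transposable element-derived protein 1-like, and the same value is carried by Ccs38, a gene of the chorion, the shell of the egg. With 106 genes on the value, neither name identifies the gene measured.

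Further large differences in this direction were also held by groups of genes. The value of LOC101457420, held by 11 genes, was 27, 6 and 26 in Ab and 611, 526 and 311 in HT (log2 fold change -4.87, adjusted p = 0.00011). That of LOC101462917, held by 98 genes in 1 unbroken stretch, was 19, 3 and 3 in Ab and 128, 167 and 95 in HT (log2 fold change -4.26, adjusted p = 0.0015, or -5.79 without line 1). The HT samples were above the Ab samples in both, but the Ab levels were so low that the folds rest on few counts. The largest fold in this direction came from a value with 1 matched gene and few counts in Ab. LOC101460594 was at 2, 3 and 0 in Ab and at 118, 56 and 28 in HT (log2 fold change -5.35, SE 0.54, adjusted p = 0.00024, or -6.15 without line 2). The value of LOC101452992, held by 119 genes, was 15, 5 and 17 in Ab and 245, 140 and 84 in HT (log2 fold change -3.84). The value of LOC101455677, held by 107 genes, was 12, 5 and 0 in Ab and 78, 61 and 28 in HT, with a log2 fold change of -3.55, or -4.51 without line 1. In both, the body parts did not overlap. The value that carries nidogen-2, a protein of the basement membrane, is led by LOC101457166 and shared by 21 genes. It was well above 0 in both body parts, at 440, 614 and 585 in Ab and 1468, 1955 and 1737 in HT (log2 fold change -1.93, SE 0.17, adjusted p = 0.00016).

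A smaller difference was found for the value of LOC101462584, held by 301 transcripts of 166 genes. It was 699, 545 and 556 in Ab and 1278, 741 and 445 in HT, so that line 3 alone had less in HT. The log2 fold change of -0.60 (SE 0.14, adjusted p = 0.010) became -0.33 with equal library sizes (adjusted p = 0.34) and -0.55 without line 2 (adjusted p = 0.14).

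**Figure D2:**
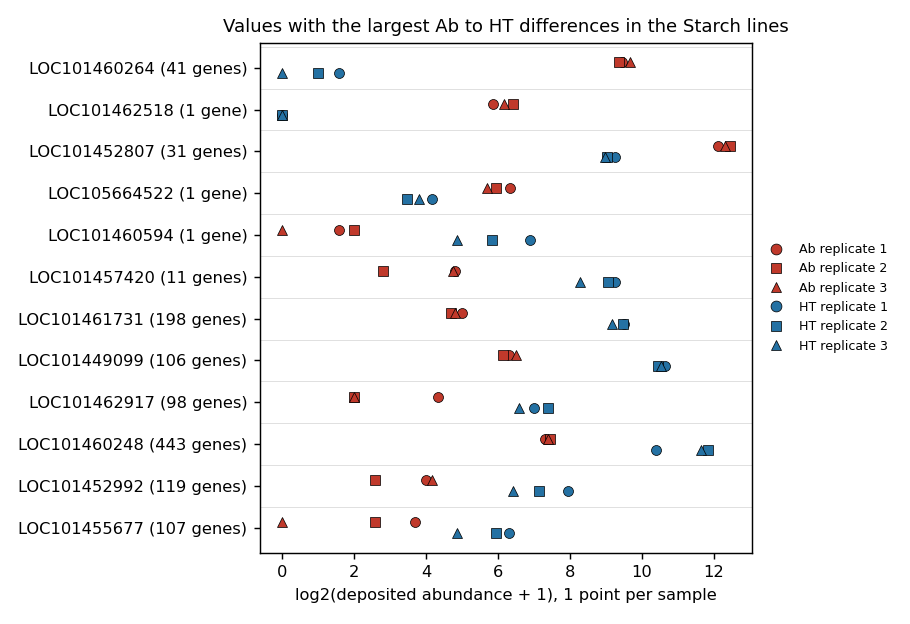
Deposited abundance in each of the 6 Starch samples, as log2(abundance + 1) on the x axis, for the values with the largest differences that passed the test, 4 higher in Ab and 8 higher in HT. Red symbols are Ab and blue symbols HT samples, and circle, square and triangle are lines 1, 2 and 3. In each of the 12 values the Ab and HT symbols form separate groups.

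Only 13 of the 125 values were held by 1 matched gene. In 5 of these, LOC101449614, LOC101455930, LOC101459034, LOC101462028 and LOC101462518, no unmatched transcript held the value as well. These 5 are the closest the data come to a measurement of one gene. In addition to LOC101462518, LOC105664522 and LOC101460594, 5 of the 13 passed the test. LOC101455930 was 1282, 1293 and 1230 in Ab and 2490, 2619 and 1961 in HT (log2 fold change -1.15, SE 0.18, adjusted p = 0.0018). LOC101456327 was 120, 175 and 166 in Ab and 75, 54 and 40 in HT (log2 fold change 1.20, SE 0.25, adjusted p = 0.0060), and LOC101462028 was 169, 198 and 216 in Ab and 118, 54 and 80 in HT (log2 fold change 0.99, SE 0.26, adjusted p = 0.016). In these 3 values the Ab and HT samples did not overlap, but the calls of LOC101456327 and LOC101462028 were lost without line 2 (adjusted p = 0.066 and 0.13) and without line 3 (0.054 and 0.073).

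The remaining differences of values with 1 matched gene were smaller. LOC101461900 was 519, 552 and 455 in Ab and 944, 695 and 576 in HT (log2 fold change -0.78, adjusted p = 0.0034), and with equal library sizes the difference was -0.51 (adjusted p = 0.14). LOC101449614 was 500, 499 and 545 in Ab and 678, 571 and 436 in HT, so that the deposited values overlapped, and its fitted difference of -0.37 (SE 0.13, adjusted p = 0.041) became -0.11 with equal library sizes (adjusted p = 0.81). The test was not passed by LOC101449612, LOC105664571, LOC101460230, LOC101459034 or LOC105665518. Of these, LOC101459034 and LOC101460230 overlapped between body parts. The others did not. LOC105664571 was 804, 805 and 866 in Ab and 734, 570 and 552 in HT (log2 fold change 0.16), LOC101449612 was 366, 374 and 383 in Ab and 290, 242 and 232 in HT (log2 fold change 0.30, adjusted p = 0.15), and LOC105665518 was 24, 26 and 25 in Ab and 15, 14 and 7 in HT (log2 fold change 0.84, adjusted p = 0.064). LOC105665518 did pass without the block (adjusted p = 0.040), with quantile normalisation in limma (0.035) and in the fit over 12 samples (0.017).

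**Figure D3:**
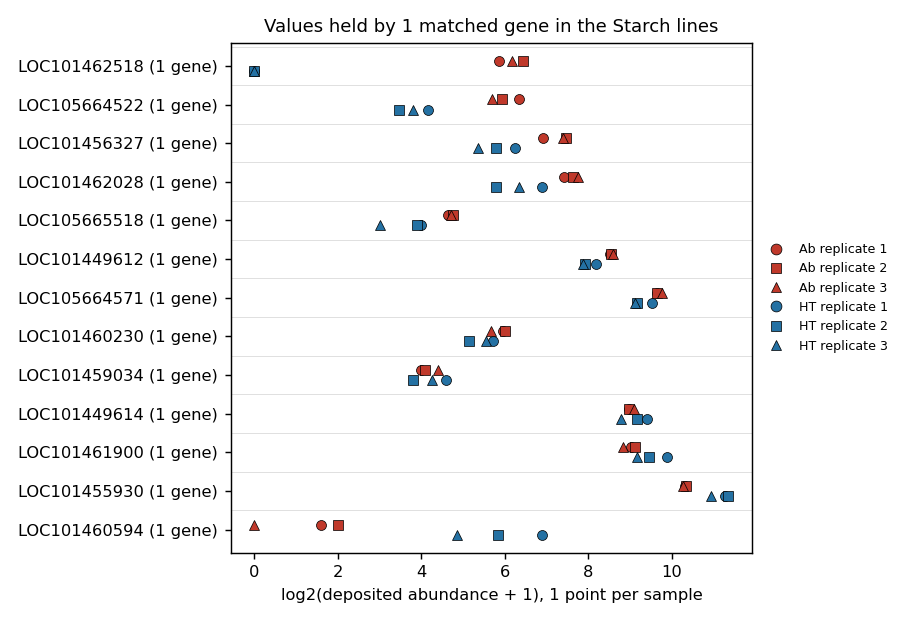
Deposited abundance in each of the 6 Starch samples, as log2(abundance + 1) on the x axis, for the 13 values held by 1 matched gene, ordered by their fitted difference. Red symbols are Ab and blue symbols HT samples, and circle, square and triangle are lines 1, 2 and 3. The 3 HT samples of LOC101462518 are at 0, and the symbols of LOC101459034, LOC101449614 and LOC101460230 overlap between body parts.

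The lines did not contribute equally. Among the 64 values that passed, the scaled difference within a line was smallest in line 1 for 40, in line 2 for 7 and in line 3 for 17. The median absolute log2 difference of these values was 0.91 in line 1, 1.47 in line 2 and 1.27 in line 3. The line 1 pair includes HT replicate 1, the sample that stood apart.

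This spread between lines was plain in a group of 9 values with almost the same profile, each within 0.35 on the log2 scale of the value of LOC101456100. The group was chosen after its values were seen. Its members covered 2086 transcripts and 1104 genes, and the value of LOC101456100 alone was carried by 509 transcripts of 241 genes in 1 unbroken stretch. That value was 571, 539 and 811 in Ab replicates 1, 2 and 3 and 323, 114 and 103 in HT (log2 fold change 1.73, SE 0.26, adjusted p = 0.0016). Within line 1, the deposited Ab abundances of the 9 values were 1.64 to 1.86 times those in HT. In line 2 the ratio was 3.86 to 4.75, and in line 3 it was 7.31 to 8.01. After TMM scaling, lines 2 and 3 lay closer together. The scaled value of LOC101456100 was 524, 538 and 702 in Ab of lines 1, 2 and 3 and 273, 134 and 143 in HT. The fitted log2 fold changes were 1.57 to 1.73 with all lines and 1.95 to 2.15 without line 1.

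Genes named for both dehydrogenases of the oxidative branch of the pentose phosphate pathway, which supplies NADPH, lay on values of this group. The group covers 1104 of the 6062 kept genes, and neither name identifies the gene measured. Zw, the glucose-6-phosphate dehydrogenase gene, was on the value of LOC101449217, shared by 52 genes, at 325, 309 and 461 in Ab and 182, 71 and 58 in HT (log2 fold change 1.69, SE 0.27, adjusted p = 0.0018). The 6PGD gene, for 6-phosphogluconate dehydrogenase, was on the value of LOC101452783, shared by 275 genes, at 659, 656 and 957 in Ab and 403, 168 and 131 in HT (log2 fold change 1.57, adjusted p = 0.0018). Ab exceeded HT in every line for both values, and so it did for those of LOC101449021, LOC101458806, LOC101462299 and LOC101462490. Among the genes on these are a signal transducer and transcription activator gene (STAT) and a solute carrier family 25 member 46 gene.

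**Figure D4:**
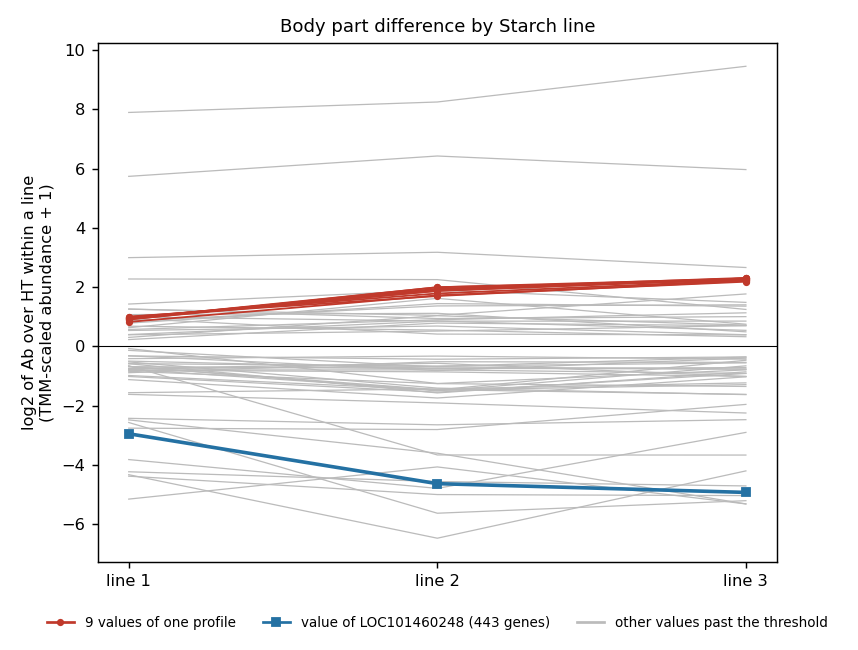
The log2 of Ab over HT (TMM-scaled abundance + 1) within each of the 3 Starch lines, for the 64 values that passed the test. Each connected series is 1 value, the lines have no order, red marks the 9 values of one profile, blue the value of LOC101460248, and 0 is equality. The red series are lowest in line 1 and highest in line 3. Before scaling, which is not what is plotted, their Ab to HT ratios are 1.64 to 1.86 in line 1 and 7.31 to 8.01 in line 3. Scaling makes the ratios in line 3 smaller.

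Names were scarce. Among the 10409 matched genes, 71 carried a name, 43 of them on a value that was kept, and most of these names come from the study, which picked the genes for a difference between diets. Of the 43, 14 lay on 8 values higher in Ab, 15 on 7 values higher in HT and 14 on 10 values that did not pass. Over all 6062 kept genes, 1354 lay on values higher in Ab, 1724 on values higher in HT and 2984 on values that did not pass. The 8 genes that matched the list for digestive proteases lay on 6 values. The 2 on the value of LOC101452807 were higher in Ab, 1 was higher in HT (F56F10.1, on the value of 443 genes described above) and 5 did not pass. Of all values, 23.2% were higher in Ab and 28.0% in HT. Under equal library sizes Trypsin-7 was also higher in Ab, which made 3. The 5 were Trypsin-7 (value LOC101448436, 354 genes), chymotrypsin-1 (LOC101458909, 74 genes), a chymotrypsin-1-like gene (LOC101460945, 203 genes) and both SP24D-like genes (LOC101458433, 121 genes). Their log2 fold changes of 0.30, 0.34, 0.44 and -0.30, in that order, had SE of 0.29, 0.42, 0.27 and 0.27. The chymotrypsin-1 value was 45, 38 and 85 in Ab and 74, 26 and 19 in HT, and the body parts overlapped.

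Genes of sex determination and the germ line were also among those with a name. CcSxl, the medfly homologue of Sex-lethal, lay on the value of LOC101462082, at 376, 339 and 400 in Ab and 714, 522 and 504 in HT (log2 fold change -0.89, SE 0.13, adjusted p = 0.0016), and its difference was -0.63 with equal library sizes (adjusted p = 0.097). Tra2, the partner of transformer in sex-specific splicing, lay on the value of LOC101454087, at 671, 619 and 876 in Ab and 490, 281 and 249 in HT (log2 fold change 0.87, SE 0.15, adjusted p = 0.0029). These genes thus lay on values of opposite direction, shared by 47 and 127 genes. The gene nanos, a regulator of germ cells, was on the value of LOC101462214, shared by 25 genes. That value was 2006, 1925 and 2029 in Ab and 2114, 1942 and 2060 in HT, and the body parts overlapped (log2 fold change -0.30, SE 0.20, adjusted p = 0.25). Without line 1 the scaled difference was -0.48 (adjusted p = 0.010).

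Of the other named genes, hsp83, the cytosolic chaperone Hsp90, was on a value led by LOC101448488 and shared by 16 genes. That value was at 467 to 588 in Ab and 395 to 617 in HT (log2 fold change -0.12, SE 0.13, or 0.14 with equal library sizes). The cytochrome P450 gene CcCYP9B5 was on a value led by LOC101453257 and shared by 143 genes, at 884 to 1342 in Ab and 615 to 972 in HT (log2 fold change 0.24, SE 0.16). Neither passed the test. The value of the kinase subunit gene CK2alpha, led by LOC101451932 and shared by only 3 genes, was 319, 386 and 377 in Ab and 262, 181 and 130 in HT (log2 fold change 0.70, SE 0.17, adjusted p = 0.010), a call lost without line 2 (adjusted p = 0.12) or line 3 (0.089). The only gene of oxidative phosphorylation with a name, a succinate dehydrogenase subunit, was on the value of LOC101448436, shared by 354 genes, Trypsin-7 among them. That value was 4781, 7350 and 5441 in Ab and 3152, 4819 and 3911 in HT. The deposited Ab abundance exceeded that in HT in every line by a like factor, 1.52, 1.53 and 1.39 in lines 1, 2 and 3, and the difference passed with equal library sizes (log2 0.56, adjusted p = 8.4e-07) but not with TMM scaling (adjusted p = 0.41). Searches for markers of phototransduction, flight muscle, synapse, testis, accessory gland, fat body and Malpighian tubule found 0 named genes, because the gene table gives almost no product names. The labelled body parts were therefore not checked against such markers.

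The study compared lines from both diets, which raises the question of whether the body part difference of the Starch lines differed from that of the ASG lines. In a fit over all 12 samples with 145 values, 74 differed between body parts in Starch (51.0%) and 50 in ASG (34.5%). Ab exceeded HT under both diets in 15 values, and HT exceeded Ab under both in 29. The direction was opposite in 0, and a further 17 values with more in Ab and 13 with more in HT passed in Starch but not in ASG. In the other direction, 5 values with more in Ab and 1 with more in HT passed in ASG but not in Starch. The difference itself, tested as an interaction of body part with diet, passed in 0 of 145 values (0.00%; edgeR, line as block, smallest adjusted p = 0.16). At an unadjusted p under 0.05 there were 23 values, and limma on the log2 scale also found 0 past the threshold.

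All 8 values with the largest differences towards HT in Starch also passed in ASG, as did 4 of the 8 with the largest differences towards Ab. The other 4 belong to the profile group described above. The value of LOC101460264 was 482, 773 and 481 in ASG Ab and 3, 0 and 0 in ASG HT. The value of LOC101460248 was 130, 168 and 103 in ASG Ab and 3546, 2319 and 2971 in ASG HT, with log2 fold changes of -4.26 (SE 0.37) in Starch and -4.47 (SE 0.37) in ASG. The value of LOC101452807 had log2 fold changes of 2.88 (SE 0.17) in Starch and 2.60 (SE 0.16) in ASG. Its Starch minus ASG difference of 0.28 (SE 0.22) did not pass (unadjusted p = 0.24). A value held by 1 unmatched transcript, XM_012301418, differed more between the diets. It was 7, 5 and 8 in Starch Ab and 46, 31 and 31 in Starch HT, against 7, 4 and 17 in ASG Ab and 11, 18 and 33 in ASG HT. Its log2 fold changes were -2.73 (SE 0.34) in Starch and -1.15 (SE 0.35) in ASG, and their difference of -1.58 (SE 0.51, unadjusted p = 0.012, adjusted p = 0.16) did not pass.

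The 9 values of one profile had a larger difference in Starch than in ASG, though not past the threshold. In the 12-sample fit their log2 fold changes were 1.50 to 1.66 in Starch and 0.10 to 0.21 in ASG, where none passed (adjusted p 0.66 to 0.83). The differences of 1.36 to 1.54 had unadjusted p of 0.0070 to 0.015 and an adjusted p of 0.16, each from the fit over all 145 values. In the ASG lines the value of LOC101456100 was 37, 527 and 195 in Ab and 65, 281 and 194 in HT, so that it varied far more between ASG lines than between their body parts. When Starch line 1 was left out, 9 values passed the interaction, and 9 of them were of this profile (log2 1.72 to 1.99, adjusted p 0.015 to 0.031). These values were grouped by their Starch levels alone and are near copies of one profile, so they do not count as separate results. Line 1 was also the Starch line in which they differed least between body parts. LOC101449614, the single gene named above, differed by -0.71 between the diets (SE 0.17, unadjusted p = 0.0017, adjusted p = 0.16), at 287, 466 and 558 in ASG Ab and 264, 341 and 460 in ASG HT.

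**Figure D5:**
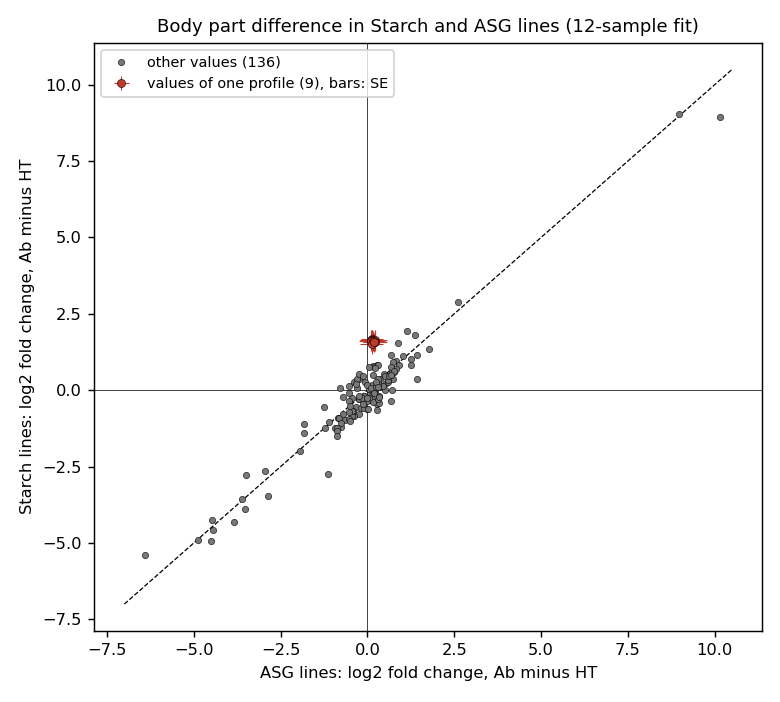
Log2 fold change, Ab minus HT, in the Starch lines (y axis) against that in the ASG lines (x axis), from the fit over 12 samples, for 145 values. Red points with SE bars are the 9 values of one profile, grey points the others, and the dashed line marks equality. The red points lie at 1.50 to 1.66 in Starch and 0.10 to 0.21 in ASG, and the point at the upper right that belongs to LOC101462518, at 0 in HT, has a fitted fold that depends on the prior count.

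A range rule, modelled on the fold change rule of the study, was also applied, which calls a difference where the nearest bounds of the Ab and HT ranges differ by more than 1 on the log2 scale after an offset of 20. In the deposited Starch values it called 11 of 125 (8.80%), 3 with more in Ab and 8 with more in HT. The 3 were the values of LOC101460264, LOC101462518 and LOC101452807. The 8 were those of LOC101460594, LOC101457420, LOC101461731, LOC101449099, LOC101462917, LOC101460248, LOC101452992 and LOC101457166. None of the 9 values of one profile was called, and in each the HT bound nearest to Ab was that of replicate 1. When line 1 was left out, 27 values were called, 18 of them higher in Ab.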

How the data were processed

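Total RNA of body part pools was sequenced as mRNA. According to the study's methods, the authors discarded rRNA reads and those holding undetermined bases, drew the same number of reads from every library, aligned them to medfly transcripts with PaTMaN (version not given in the sources used here) without gaps and with at most 1 mismatch, kept every hit, added up the reads on a transcript and normalised by quantiles. The deposited whole numbers were treated as counts. Whether they include the last step is not given, and only the size of a value tells of its depth. Missing transcripts were set to 0.

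Transcripts with a sum of at least 100 over the 6 Starch samples were kept, identical 6-sample sets were entered once, and body parts were compared with edgeR 4.0.16 (TMM, quasi-likelihood, line as block) in R 4.3.3, with Benjamini-Hochberg adjustment over the 125 values at 0.05. SE were taken from the F statistic. The block follows the design, as Ab and HT of one number came from the same males. Same-line deviations from the group means correlated at -0.11, 0.27 and -0.21. Those of different lines correlated at -0.47 to 0.44, so samples of one line did not stand out as more alike. The TMM factors were 0.839 to 1.103, and the biological coefficient of variation was 0.201. The interaction was fitted over 12 samples with each line as a block. The range rule used an offset of 20, and took the maximal intervals of the study's rule as replicate ranges, which is a reading of its methods. With 3 samples a group, an unpaired permutation test cannot go below a p of 0.1. The floor is higher where body parts are swapped only within a line. Alternatives were limma 3.58.1, DESeq2 1.42.0, other scalings and minimum sums, and leaving out each line. The fits were tested on simulated data.

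Values named are the 8 with the largest differences in each direction, the 3 held by most transcripts in each direction, those held by 1 matched gene and those that carry a named gene. LOC101457166, XM_012301418, LOC101449614 in ASG and the 9 values of one profile were singled out after their values were seen. The members and lists were chosen with earlier results of these data known. Accessions were matched without version numbers to the table of Ccap_2.1, which gave symbols and gene order only. Gene order may differ in the assembly the authors used. Lists were matched to names and symbols, as product descriptions were not used here, and sequences were not used here.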

Additional observations from a re-analysis of the deposited data

How the results depend on the processing

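The 64 differences between body parts in the Starch lines became 70 (34 higher in Ab, 36 in HT) without the replicate block, and 63 of the 64 calls were kept. DESeq2 gave 51 and quantile normalisation with limma 75. A minimum sum of 1000 left 69 values, of which 38 passed (18 higher in HT). The 35 values higher in HT became 19 with equal library sizes and 19 with limma on unscaled log2 values, at offsets of 20 and of 1. Leaving out a line gave 33 to 72 values (16 to 32 higher in Ab, 17 to 40 higher in HT), the lowest count without line 2 and the highest without line 1, and 44 passed without line 3. Leaving out HT replicate 1 alone, without a block, gave 73, and leaving out the 9 values of one profile gave 58. Both of these were chosen after seeing the data. In all, 29 values (16 higher in Ab, 13 higher in HT) kept their call under all 14 alternatives other than the minimum of 1000 and the removal of the profile. Over the 46 values named or carrying a named gene, 713 results of alternatives included 41 that no longer passed, 10 of them for LOC101449614, 12 that newly passed and 13 that changed sign. None of the values that changed sign had passed. With limma at offsets of 20 and 1 and with equal sizes, LOC101448488 went from -0.12 to 0.14, 0.15 and 0.14, LOC101451325 from -0.23 to 0.038, 0.040 and 0.039, and LOC101455435 from -0.12 to 0.12, 0.14 and 0.14. Leaving out a line or HT replicate 1 gave -0.019 to 0.56 for LOC101448436, -0.10 to 0.50 for LOC101460230, -0.21 to 0.066 for LOC101455435 and -0.19 to 0.91 for LOC101458909, the highest without line 1 (adjusted p = 0.073).

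The 11 calls of the range rule became 64 (40 higher in Ab, 24 in HT) when any gap between ranges counted, 7 (5 higher in HT) with a minimum sum of 1000, and 5 higher in Ab when each line was compared with itself. Leaving out a line gave 11 to 27 calls, 3 to 18 higher in Ab and 8 to 10 higher in HT. The interaction count of 0 ran from 0 to 9, with 9 only without Starch line 1. Values of few counts, such as those at 0 to 3 in one body part, limit the precision of their folds, and p-values rest on 3 lines.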
